A study of Mus musculus with 3 samples.

Results

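The chromatin signal of Bcl11a, read through its Flag tag by CUT&Tag, was described around 9 genes for haematopoietic growth factor receptors: Kit, Flt3, Tek, Csf1r, Csf2ra, Csf2rb, Csf3r, Epor and Lifr. Peaks of each library were joined wherever they overlapped, and a region was given to a receptor gene when its summit lay inside the gene or within 100 kb of an outer end, and the nearest end of any protein-coding gene belonged to that receptor gene. This gave 49 regions of 60816 in the genome. Of these 49, 20 held a peak of all 3 libraries and are called reproducible, where the genome held 22987 (37.8% of all regions). The material was 3 libraries of 1 group, sorted bone marrow LSK cells (lineage-negative, Sca-1-positive, Kit-positive progenitors) of knock-in mice whose Bcl11a carries 3 Flag copies at its N-terminal end. The genotype label of each sample reads wildtype, the age is not given, and nothing in the labels says that the libraries came from separate animals. SDs over libraries therefore measure the spread between these libraries, which may be technical.

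In CUT&Tag an antibody brings a transposase to the protein of interest, and the DNA that the enzyme cuts nearby is sequenced. No untagged or antibody-free library was analysed here, and whether a region reflects Bcl11a or open chromatin tagged without it was not tested. In such bulk libraries, fewer cells with the protein at a site and less protein per cell cannot be told apart. The lists held 38731, 36459 and 43462 peaks in libraries 1, 2 and 3, and their implied backgrounds were 1.07, 1.41 and 1.95 fragments per base, so library 1 rests on the fewest fragments. Values below are the authors' own for each peak: fold enrichment, which sets the pileup (fragments stacked over the summit) against the level expected locally, and −log10 q, which grows as the peak caller finds a peak less likely by chance. The total number of fragments per library is unknown, and pileups show how many fragments a value rests on. No RNA was measured, so the LSK label was not checked against marker expression.

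Growth factor receptors carry the signals that keep blood progenitors alive, dividing and choosing a lineage. KIT, FLT3, TEK and CSF1R are receptor tyrosine kinases, which pair on binding their ligand and phosphorylate each other. CSF2RA, CSF2RB, CSF3R, EPOR and LIFR are cytokine receptors without a kinase of their own, and signal through JAK kinases and STAT factors. KIT is also the surface protein by which LSK cells are sorted. Bcl11a is a zinc finger repressor known for silencing fetal globin and for its need in lymphoid progenitors.

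Sequence before annotated transcription starts was taken from RefSeq (GRCm38.p6, the assembly behind mm10), which gave 9 windows for 7 of the 9 receptor genes, of 250 bases before to 50 after each start. A reproducible region overlapped 4 of these 9 windows, against 31.4% of all 32851 windows. The 4 are both windows of Kit, that of Flt3 and 1 of the 2 of Lifr. The 2 Kit windows are nearly the same stretch, beginning at chr5:75574737 and chr5:75574741, and lie under the same region. The 250 bases before 1 start each of Kit, Flt3 and Lifr are shown first, because they lie under the signal. Capitals mark matches, on either strand, to short motifs of 5 kinds of factor. The letters TGACCA are those known for BCL11A at the globin genes. ETS factors such as PU.1, which are needed for many blood lineages, were searched as GGAAGT. For RUNX factors, which act in stem and progenitor cells, the letters were TGTGGT. The sites of GATA factors, known from stem, erythroid and mast cells, were searched as AGATAA and, for the other frequent form of their site, as TGATAA. The site of AP-1, a dimer of stimulus-responsive factors, was searched as TGAGTCA and, on the opposite strand, reads as TGACTCA. The Kit stretch is chr5:75574737-75574986 (plus strand), that of Flt3 is chr5:147400490-147400739 (minus strand) and that of Lifr is chr15:7129322-7129571 (plus strand).
Kit: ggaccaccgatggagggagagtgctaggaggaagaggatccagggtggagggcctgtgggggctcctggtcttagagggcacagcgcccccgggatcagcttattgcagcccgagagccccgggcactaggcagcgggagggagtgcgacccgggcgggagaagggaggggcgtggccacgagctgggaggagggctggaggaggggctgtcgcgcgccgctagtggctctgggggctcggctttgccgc
Flt3: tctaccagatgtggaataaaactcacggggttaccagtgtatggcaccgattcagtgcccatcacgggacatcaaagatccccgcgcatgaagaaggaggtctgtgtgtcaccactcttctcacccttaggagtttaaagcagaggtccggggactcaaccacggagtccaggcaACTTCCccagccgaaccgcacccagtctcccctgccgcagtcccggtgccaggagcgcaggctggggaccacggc
Lifr: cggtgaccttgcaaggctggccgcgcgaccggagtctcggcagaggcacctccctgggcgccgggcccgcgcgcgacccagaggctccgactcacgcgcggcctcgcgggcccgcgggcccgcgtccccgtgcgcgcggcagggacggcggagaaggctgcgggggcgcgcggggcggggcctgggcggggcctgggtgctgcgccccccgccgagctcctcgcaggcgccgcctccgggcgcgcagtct
Of the 300 bases of each window, the reproducible region covered 300 at Kit, 272 at Flt3 and 252 at Lifr. None of the 3 stretches holds TGACCA, which 11.4% of all promoter stretches of this length hold. Flt3 alone of the 3 has a match, to the ETS letters on the reverse strand 75 bases before the start, as 19.7% of all stretches do. They hold 17, 13 and 43 CpG dinucleotides, where the median of all stretches is 6.

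TGACCA stands before 3 of the 9 starts, those of Epor and Tek and the second start of Lifr (101 bases before it), and no reproducible region overlapped these windows. The stretches of Epor and Tek are shown for that reason, at chr9:21963577-21963826 (minus strand) and chr4:94739039-94739288 (plus strand).
Epor: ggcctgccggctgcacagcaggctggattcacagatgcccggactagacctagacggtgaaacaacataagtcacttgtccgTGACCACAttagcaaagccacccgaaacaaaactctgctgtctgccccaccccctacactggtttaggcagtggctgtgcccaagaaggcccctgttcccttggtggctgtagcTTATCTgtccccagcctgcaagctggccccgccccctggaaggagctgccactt
Tek: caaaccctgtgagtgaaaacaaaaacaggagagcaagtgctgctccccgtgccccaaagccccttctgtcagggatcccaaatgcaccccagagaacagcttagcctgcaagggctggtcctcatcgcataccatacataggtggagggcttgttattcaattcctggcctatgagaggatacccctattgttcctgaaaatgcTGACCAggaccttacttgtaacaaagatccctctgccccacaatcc
The Epor stretch has TGACCA 168 bases before the start, a RUNX match overlapping it by 4 letters, and a GATA match 54 bases before the start. The Tek stretch has TGACCA 46 bases before the start. They hold 6 and 2 CpG dinucleotides. A match describes letters only. At Epor a peak of library 3 alone covered 298 of the 300 bases, at Csf3r a peak of library 3 alone covered 206, and at Tek no library had a peak. The window of Csf2ra and that of a second Lifr start were also without a peak of any library. RUNX letters stand in 14.0% of all stretches, GATA letters in 16.6% and AP-1 letters in 4.46%.

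Of the 9 receptor genes, 7 were given at least 1 reproducible region, against 53.6% of all 21887 protein-coding genes. Kit had 5, Flt3 and Lifr 4 each, Csf2ra 3, Csf2rb 2, Csf1r and Epor 1 each, and Tek and Csf3r 0. As many as 4 regions were found at 5.83% of protein-coding genes. Kit, Flt3 and Lifr are long or isolated genes, with domains (the bases whose nearest gene end is theirs) of 282, 86.8 and 211 kb, where the median protein-coding gene had 46.4 kb. Per 100 kb of domain the 9 genes together had 1.84 regions, against 1.17 over all protein-coding genes. The counts move with the assignment: with noncoding genes also taking regions the 9 genes kept 13, with every region of the 100 kb windows counted they had 61, and with the 10000 strongest peaks of each library they had 7.

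**Figure D1:**
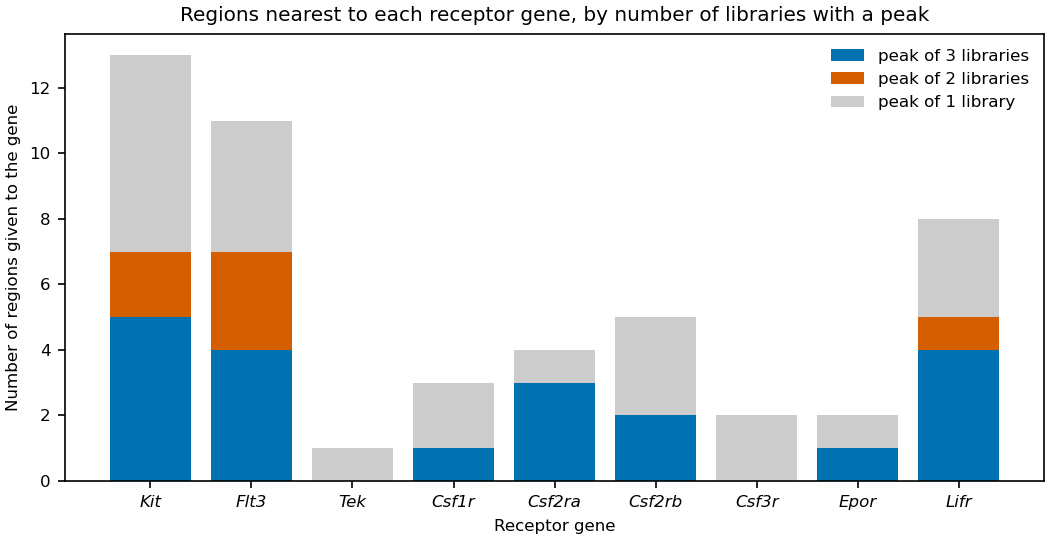
Number of regions given to each receptor gene, stacked by the number of libraries with a peak in the region (blue 3, orange 2, grey 1). Kit and Flt3 have the most regions (13 and 11), and Tek and Csf3r have none with a peak of all 3 libraries.

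Of the 20 reproducible regions, 16 were distal, with the summit over 1 kb from every outer end of a protein-coding gene, against 63.0% of all reproducible regions. Over all 20 regions, distal or not, the summit lay inside the receptor gene in 11 cases, which is 55% against 55.1% of all reproducible regions. Distal regions were found at 6 of the 9 genes, against 30.5% of all protein-coding genes. At 5 of the 9 genes an outer end had a reproducible region within 1 kb, Kit, Flt3, Csf2ra, Csf2rb and Epor, against 45.2% of all protein-coding genes. This count depends on the distance and the threshold: 3 genes had a region within 250 bp of an end and 8 within 3 kb (against 40.7% and 50.8% of all protein-coding genes), 3 had one with −log10 q of at least 5 and 2 with the 10000 strongest peaks (against 38.1% and 20.6%). A region counts at an end whichever gene it is given to. The 8 therefore include Csf3r, whose nearby region was given to Mrps15. Next to the limit of 1 kb stood Epor, with its summit 847 bp from the end, and Csf2ra at 1065 bp, whose region counts as distal although its edge comes within 1 kb.

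**Figure D2:**
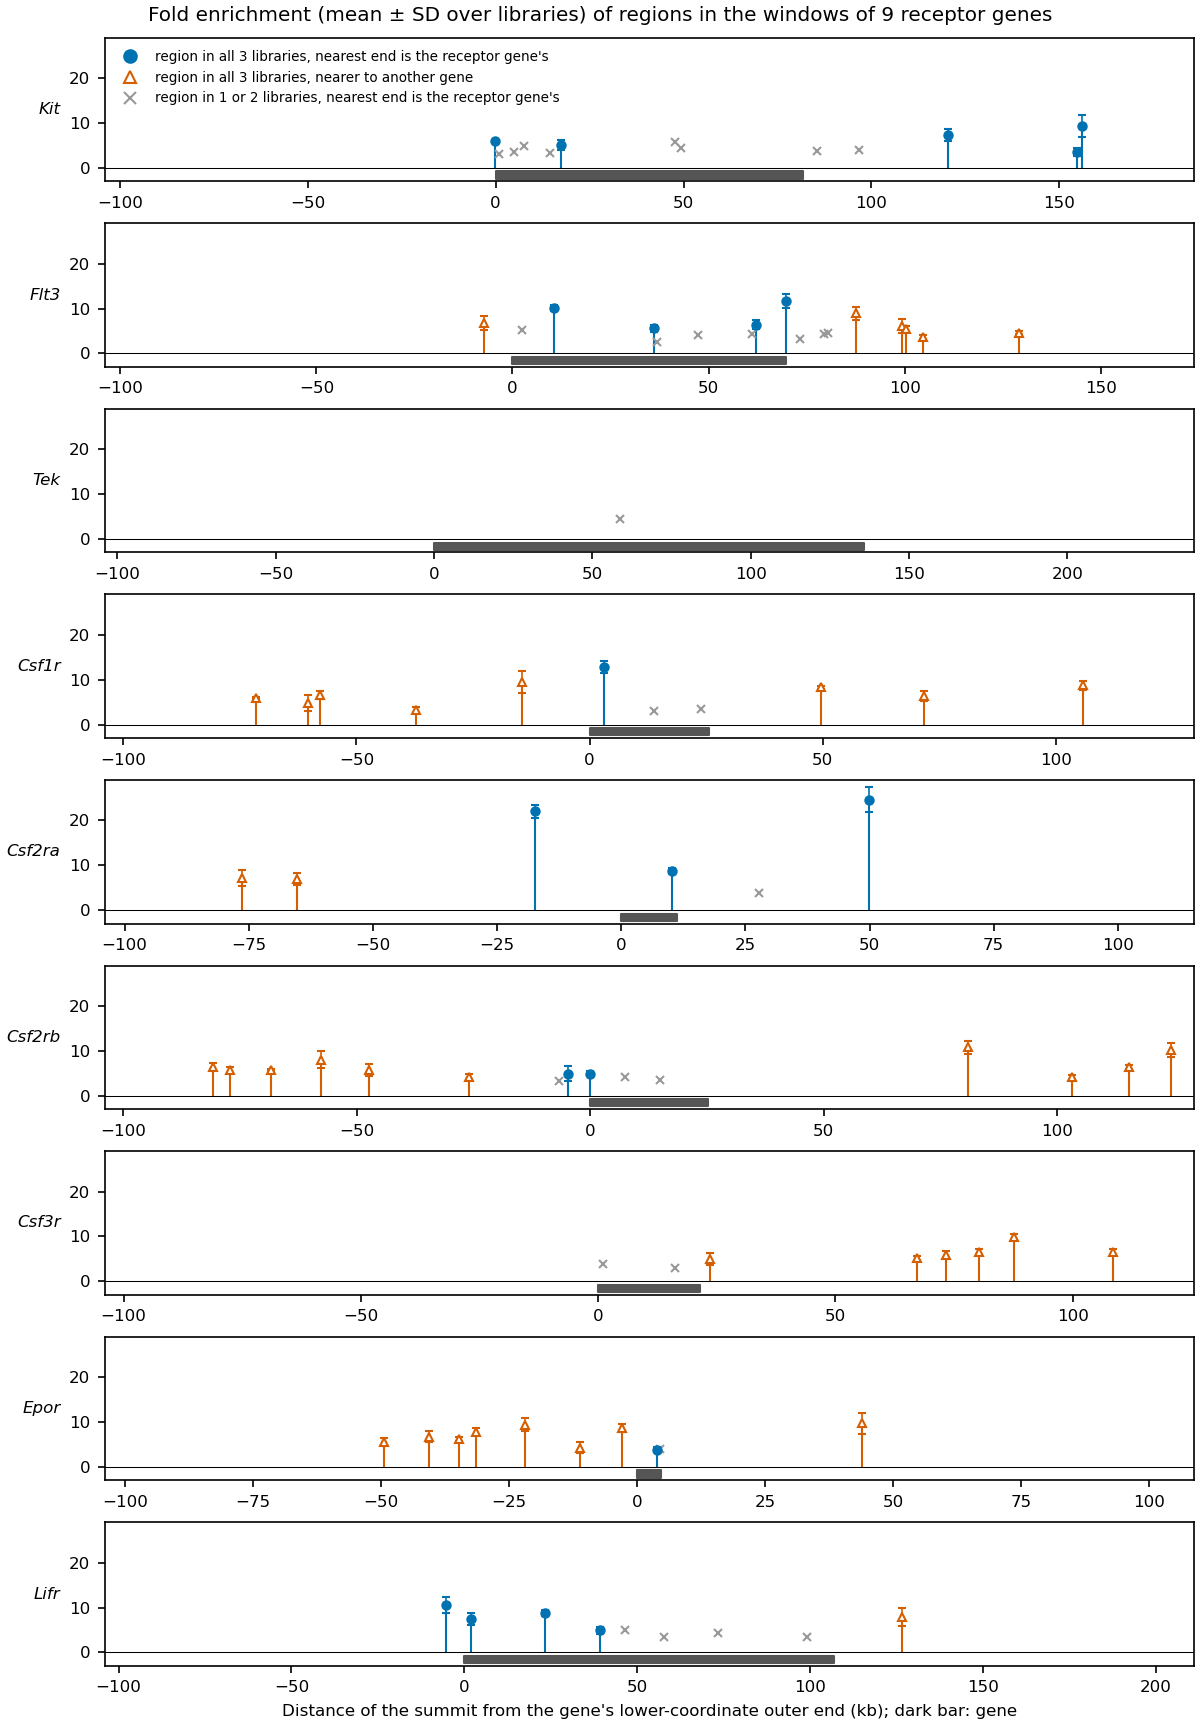
Fold enrichment of regions (mean, with SD over the 3 libraries for reproducible ones) against the distance of the summit in kb from each gene's lower-coordinate outer end, with the gene as a dark bar. Filled circles are reproducible regions given to the receptor gene, open triangles are reproducible regions nearer to another gene and crosses are regions of 1 or 2 libraries given to the receptor gene. Kit has its strongest region beyond the gene, Flt3 has all 4 inside it, and the window of Tek holds a single cross.

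Kit, the receptor of stem cell factor (chr5:75574987-75656722), was the only protein-coding gene nearest to any of the 13 regions in its window. The strongest of its 5 reproducible regions lay 74.2 kb beyond the higher-coordinate end, downstream of the gene (chr5:75730578-75731571). It had fold enrichments of 11.02, 10.3 and 6.55 in libraries 1, 2 and 3, a mean of 9.29 ± 2.40 (SD, n = 3), with summit pileups of 38, 52 and 33 fragments. The value of library 3 stood clearly below the others. A weaker region on the same side (chr5:75729216-75729747) had 4.45, 3.66 and 2.68. Between these and the gene, 38.7 kb beyond its end, a region at chr5:75695171-75696200 had 8.73, 7.25 and 5.94 with a pileup of 20 fragments in every library.

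The Kit promoter itself carried less fold enrichment than the farthest downstream region. The region over the start (chr5:75574573-75575193) had 5.60, 5.97 and 6.11 in libraries 1, 2 and 3, a mean of 5.89 ± 0.26 (SD, n = 3). In fold enrichment the libraries lay closer together here than at any other of the 20 regions. Each fold enrichment was below that of the same library at the strongest region. Pileups over the start were 18, 26 and 36 fragments, and that of library 3 exceeded its 33 fragments at the strongest region. Inside the gene, 17.5 kb from the start, a region at chr5:75592376-75592889 had 6.21, 4.04 and 4.87 on pileups of 14, 9 and 14 fragments. Its promoter region ranked 12916th of 22987 by mean fold enrichment and its strongest region 3704th, so that neither stands at the top of the genome. The 6 regions of Kit with a peak of 1 library had fold enrichments of 3.18 to 4.95. Its count of 5 was 3 with −log10 q of at least 5, 2 with noncoding genes also taking regions and 0 with the 10000 strongest peaks. The count was also 3 with 50% reciprocal overlap and 3 with a window of 50 kb, which leaves out the strongest region.

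Flt3, the receptor by which multipotent and lymphoid progenitors receive FLT3 ligand (chr5:147330741-147400489), had its strongest region over the start of transcription. At chr5:147399969-147400711 the fold enrichments were 12.5, 9.99 and 12.6 in libraries 1, 2 and 3, a mean of 11.7 ± 1.47 (SD, n = 3), on 88, 92 and 129 fragments. The 3 summits lay within 5 bp of each other, 93 bp inside the gene. By mean fold enrichment the region ranked 1325th of 22987, in the top 5.76%. Far inside the gene, 59.2 kb from the start and 10.5 kb from the other end, a region at chr5:147340956-147341652 had 10.9, 9.52 and 9.93, a mean of 10.1 ± 0.73 (SD, n = 3). Within each library it was below the promoter region, by 1.56 ± 1.09 on average (SD, n = 3). The other regions, at 7.54 and 33.7 kb from the start, had means of 6.42 ± 1.02 and 5.57 ± 0.78 (SD, n = 3). They overlapped in range, and their order differed between libraries.

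Flt3 was the only receptor gene whose count of reproducible regions moved by over 1.5 times when any 1 library was left out. Without library 3 it had 7 regions in place of 4, since 3 further regions held peaks of libraries 1 and 2 alone, with fold enrichments of 2.70 to 5.29. With all libraries, its count was 2 with noncoding genes also taking regions and 2 with the 10000 strongest peaks of each library. Beyond its start, 17.9 kb away, a region at chr5:147418064-147418908 had 7.34, 9.43 and 9.94, but lay nearer to Pan3 and was not counted for Flt3.

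Lifr, the receptor that pairs with gp130 to bind LIF (chr15:7090610-7197489), had 4 reproducible regions, all counted as distal. The strongest lay 5.42 kb below the lower-coordinate end (chr15:7084876-7085487), with 12.2, 11.2 and 8.70 in libraries 1, 2 and 3, a mean of 10.7 ± 1.78 (SD, n = 3). Its 3 summits fell within 1 bp of each other. Inside the gene followed regions at chr15:7092180-7092872 with 8.04, 8.31 and 5.89, and at chr15:7113827-7114264 with 8.22, 8.78 and 9.38. The region at chr15:7129370-7130484 overlies the annotated start whose sequence is shown above, 39.2 kb inside the outer end. It was the weakest of the 4, with 5.22, 4.01 and 5.46, a mean of 4.90 ± 0.78 (SD, n = 3), and the peak of library 1 did not reach the promoter window.

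Csf1r, the receptor of macrophage colony-stimulating factor and IL-34 (chr18:61105572-61131139), had a single reproducible region. It lay 3.0 kb inside the gene from the lower-coordinate end (chr18:61107759-61109117). The fold enrichments were 14.2, 12.6 and 11.7 in libraries 1, 2 and 3, a mean of 12.8 ± 1.26 (SD, n = 3), on pileups of 153, 177 and 243 fragments. By mean fold enrichment this region ranked 766th of 22987, in the top 3.33%. By pileup over the library background it ranked 254th, in the top 1.10%. Csf1r is known for an intronic enhancer active in macrophages and their precursors, and whether the region overlies it was not tested, since the annotation used gives no exons or introns. A region 14.4 kb below the gene (chr18:61090614-61091614), with 7.97, 8.35 and 12.4, lay nearer to the end of the neighbouring receptor gene Pdgfrb.

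The chains of the GM-CSF receptor differed in strength. Csf2ra, the ligand-specific alpha chain (chr19:61217191-61228461), had the 2 strongest regions of the 9 genes by mean fold enrichment. Csf2rb, the beta chain shared with the receptors of IL-3 and IL-5 (chr15:78325800-78351001), had weak ones. At Csf2ra, 38.6 kb beyond the higher-coordinate end, upstream of the start, a region at chr19:61266378-61267254 had 27.6, 24.0 and 22.3 in libraries 1, 2 and 3, on 409, 564 and 719 fragments. At 17.4 kb below the lower-coordinate end a region at chr19:61199491-61199984 had 23.7, 21.4 and 21.0 on 105, 106 and 142 fragments. By mean fold enrichment these ranked 105th and 120th of 22987, and by pileup over the library background 75th and 698th. Their link to Csf2ra depends on the assignment. With noncoding genes also taking regions, the count of Csf2ra was 1 in place of 3, so at least 1 of these 2 regions went to another gene. The third region, 2372 bp wide (chr19:61225683-61228054), had its summit 1.02 kb downstream of the start, with 9.40, 8.73 and 8.08 on 158, 200 and 234 fragments.

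In fold enrichment the strongest Csf2ra region exceeded the Csf1r region by 11.8 ± 1.46 (SD over libraries, n = 3). The one near the start, with a mean of 8.74 ± 0.66 (SD, n = 3), lay below the Csf1r region. Mean pileup over the library background put these the other way, at 137 near the Csf2ra start against 131 at Csf1r. In library 3 alone that pileup was lower near the Csf2ra start (120 against 125). A region just outside the 100 kb limit, 103 kb beyond Csf2ra on the same side, had 47.4, 42.1 and 38.8, on 2067, 2186 and 2099 fragments. The peak lists carry no mapping quality, and no filter for artefact-prone regions was applied here. Only pseudogenes are annotated between the gene and the region 38.6 kb away.

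At Csf2rb the region over the lower-coordinate end (chr15:78325409-78326254) had 4.87, 5.54 and 4.38 in libraries 1, 2 and 3, on 11, 20 and 20 fragments. A region 4.88 kb below that end (chr15:78320658-78321254) had 6.90, 4.07 and 3.77, with its summit at the same base in all 3 libraries. Their means of 4.93 ± 0.58 and 4.91 ± 1.73 (SD, n = 3) differed by less than the spread between libraries, and without library 2 or without library 3 the region below the end was the stronger. Neither had −log10 q of at least 5 in every library. The adjoining gene Csf2rb2, which in mice encodes a beta chain for IL-3, was given 2 reproducible regions, and Il3ra, the IL-3 alpha chain, 1.

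Epor, the erythropoietin receptor (chr9:21958897-21963576), had 1 reproducible region inside the gene (chr9:21962008-21963005). Its fold enrichments of 4.30, 3.95 and 3.29 in libraries 1, 2 and 3 were the lowest of any strongest region among the receptor genes, on 14, 14 and 17 fragments. The summits spread over 535 bp, and with 50% reciprocal overlap the region was not reproducible. The window of Epor, a short gene among close neighbours, held 9 reproducible regions, of which 8 were nearer to other genes.

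Csf3r, the receptor by which G-CSF drives neutrophil formation (chr4:126023441-126044975), was given 2 peaks, both of library 3 alone. One (chr4:126024292-126024614) overlapped the annotated start window, with a fold enrichment of 3.83 on 13 fragments, and the other lay inside the gene with 3.06 on 8 fragments. The nearest reproducible region, 2.04 kb beyond the higher-coordinate end, had 6.46, 4.08 and 4.34 and lay at an end of Mrps15. Tek, which encodes the angiopoietin receptor TIE2 of endothelium and stem cells (chr4:94739086-94874976), had 1 peak within its whole window. It belonged to library 1 (chr4:94797671-94798015), 58.6 kb inside the gene, with a fold enrichment of 4.35 on 8 fragments.

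**Figure D3:**
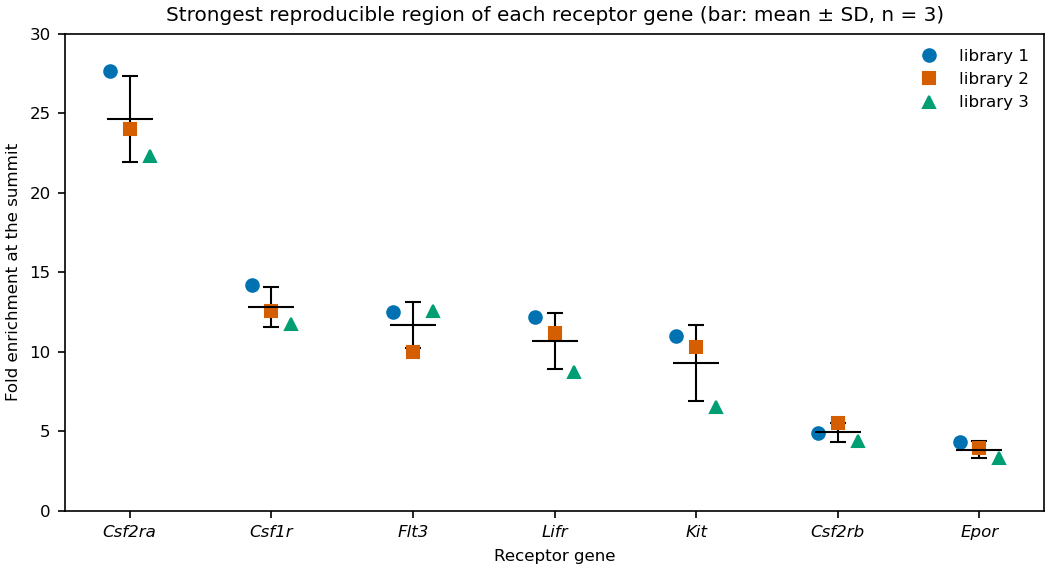
Fold enrichment at the summit of the strongest reproducible region of each receptor gene, in each library (blue circles library 1, orange squares library 2, green triangles library 3) with the mean and SD over the 3 libraries. Csf2ra lies above the others in every library. Csf1r, Flt3 and Lifr each overlap the next gene in range, Kit does not overlap Csf2rb, and Csf2rb and Epor lie lowest.

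Ordered by the strongest region, the receptor genes ran Csf2ra, Csf1r, Flt3, Lifr, Kit, Csf2rb and Epor. This order was taken with protein-coding genes alone taking regions. Each value is the highest among a gene's reproducible regions, which numbered 5 at Kit but 1 each at Csf1r and Epor. Genes with more regions had more chances of a high value. Csf1r exceeded Flt3 by 1.14 ± 1.78 and Flt3 exceeded Lifr by 1.02 ± 2.60 (SD over libraries, n = 3), each in 2 of 3 libraries and by less than the spread. Lifr exceeded Kit by 1.39 ± 0.68, Kit exceeded Csf2rb by 4.36 ± 2.02 and Csf2rb exceeded Epor by 1.08 ± 0.51, each in 3 of 3 libraries (SD, n = 3). No p is given for these differences, since an exact permutation test on 3 paired libraries cannot go below 0.25 (two-sided).

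The median fold enrichment of the 20 regions was 7.36, against 6.25 for all reproducible regions, and 12 of the 20 lay above 6.25. Without the 3 regions of Csf2ra the median was 6.42. The 16 distal regions had a median of 8.07, against 5.78 for all distal regions given to a gene, and the 4 at an end had 5.41, against 7.20 for all regions at an end. Median widths were 754.5 bp and 752 bp, and the median spread of the 3 summits was 142.5 bp for the receptor genes and 128 bp for all reproducible regions. No test was run on these medians.

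**Figure D4:**
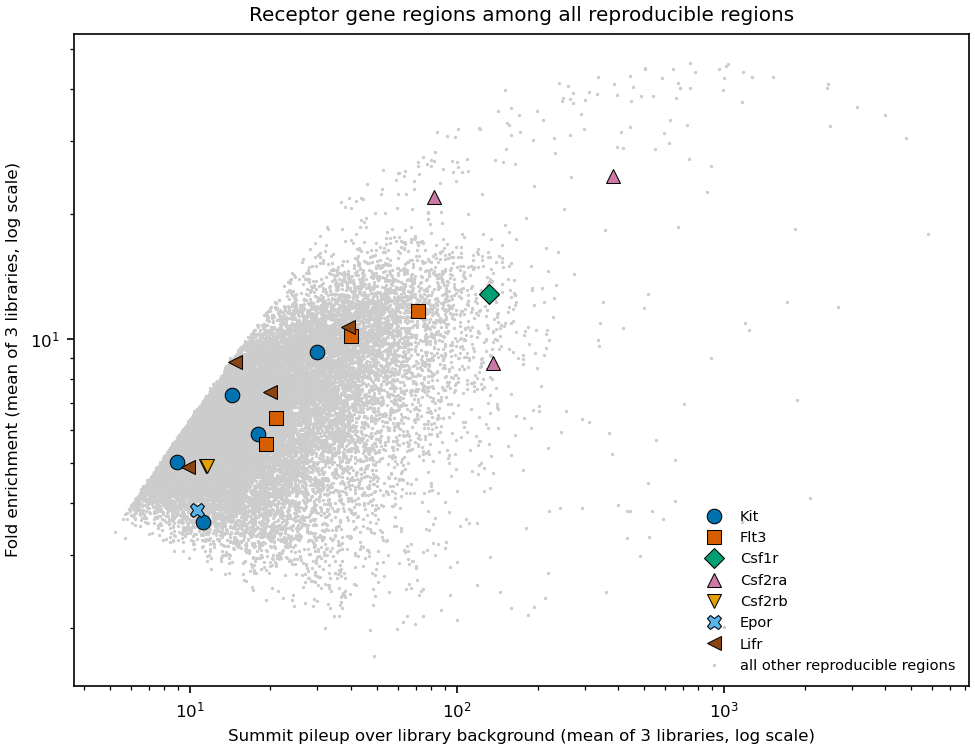
Mean fold enrichment against mean summit pileup over the library background (both log scales) for the 20 reproducible regions of the receptor genes (coloured symbols by gene) and all other reproducible regions (grey). The regions of Csf2ra and Csf1r lie at the high-pileup side, and those of Kit, Lifr, Csf2rb and Epor lie within the bulk of the cloud.

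Peaks near the receptor genes recurred between libraries about as often as peaks elsewhere. In library 1, 21 of 33 peaks lay in reproducible regions (63.6% against 62.4% of all peaks), in library 2, 20 of 29 (68.97% against 64.1%), and in library 3, 20 of 34 (58.8% against 53.8%). The 23 regions with a peak of a single library had fold enrichments of 2.57 to 4.95, and 12 of them came from library 3, 6 from library 1 and 5 from library 2. Library 1 had the highest fold enrichment at 12 of the 20 reproducible regions (60.0% against 40.0% of all reproducible regions), and library 3 the lowest at 13 (65.0% against 44.9%). Summit pileup went the other way, being highest in library 3 at 14 of the 20 (70.0% against 73.1%).

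Related genes were described in the same way, with no test on any list. Of 23 other type I cytokine receptor genes, 13 (56.5%) had a reproducible region within 1 kb of an end, and they had 2.04 regions per 100 kb of domain. Il6ra, Il21r and Il4ra, for the receptors of IL-6, IL-21 and IL-4, had 6 each. Il6st, for the gp130 chain that pairs with LIFR, had 3. Il7r, for the IL-7 receptor of lymphoid cells, had 0, and so did Osmr, the neighbour of Lifr.

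Of 34 receptor tyrosine kinase genes that act chiefly in other tissues, 13 (38.2%) had a region at an end, with 0.717 regions per 100 kb. Igf1r, for the insulin-like growth factor receptor, had 7, and Flt1, a VEGF receptor gene, and Ror1 had 5 each. Among neighbours of the members, Pdgfrb beside Csf1r had 4, Kdr beside Kit 3 and Pdgfra on the other side of Kit 2. The 12 ligand genes had a region at an end in 3 cases (25.0%) and 1.14 per 100 kb. Lif had 7 regions, all distal. Csf2, Il34 and Flt3l, for GM-CSF, IL-34 and FLT3 ligand, had 2 each and Csf1, for macrophage colony-stimulating factor, had 1. Of these, Csf2, Flt3l and Csf1 had a region at an end. The ligand genes Kitl, Epo, Thpo, Csf3, Angpt1, Angpt2 and Il3 had 0.

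The 26 genes of signalling downstream of the receptors had a region at an end in 22 cases (84.6%) and 3.33 regions per 100 kb. All 26 had at least 1 reproducible region. Pik3r1, a regulatory subunit of PI3 kinase, and Socs3, a feedback inhibitor of cytokine receptors, had 8 each, and Inpp5d, for the phosphatase SHIP1, had 7. Jak1 had 4 and Jak2, the kinase bound to EPOR and the GM-CSF receptor, had 1.

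**Figure D5:**
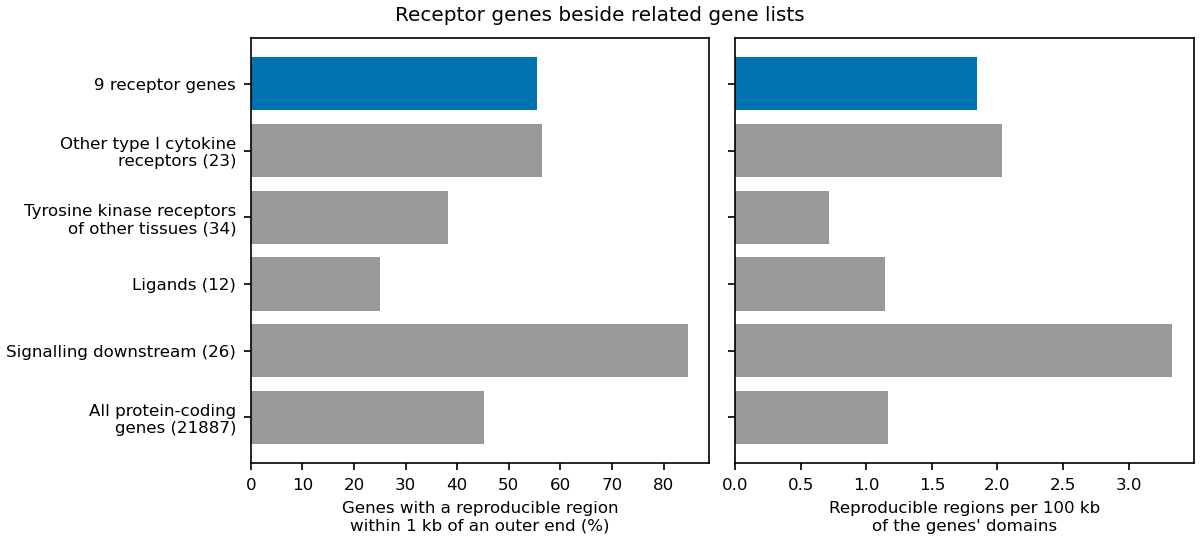
Left, percent of genes with a reproducible region within 1 kb of an outer end; right, reproducible regions per 100 kb of the genes' domains, for the 9 receptor genes (blue), 4 related lists and all protein-coding genes (grey), with the number of genes in brackets. The receptor genes stand at 55.6% and 1.84, and signalling genes downstream at 84.6% and 3.33.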

How the data were processed

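Per the submitters' processing notes, Bowtie2, SAMtools and MACS2 were used on the mm10 build. Their versions, the removal of duplicates and any control are not given in the sources used here. Each library has 1 deposited peak list, which holds the authors' fold enrichment at the summit (a ratio of pileup over local background), −log10 p and −log10 q, a score (not used) and the summit's place. The lists hold no fragment counts. Pileup and background were solved from fold enrichment and −log10 p as a Poisson tail, and 100% of pileups came out whole within 0.05 of a fragment in all 3 lists. A library's lowest solved background served as its background level.

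Peaks on chromosomes 1 to 19, X and Y were joined at 1 bp of overlap, and a region's value in a library is that of its strongest peak there. A region's summit is that of its strongest peak in any library. No list of artefact-prone regions was used to remove peaks. Gene ends came from the RefSeq table of GRCm38.p6, which gives no strand. Python 3.11.15, numpy 2.4.6, pandas 2.3.3 and scipy 1.17.1 were used, and the join, assignment and recovery were tested on simulated data. The members, lists and motifs were chosen with earlier results of these data known. All members were named, and of the related lists the genes with the 3 highest counts and those adjoining a member. Other related genes named were chosen after their values were seen. With 1 group and no control, conditions could not be compared, and no test was run on differences between regions within libraries. No genome sequence was used here, so distal regions were not searched for motifs.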

Additional observations from a re-analysis of the deposited data

How the results depend on the processing

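The number of reproducible regions given to the receptor genes (20) was 20 to 24 without 1 library, 7 with the 10000 strongest peaks of each library, 61 with every region of the windows and 13 with the nearest end of any gene. Distal regions (16) were 16 to 20 without 1 library, and 6, 43 and 9 under the same 3 alternatives. Genes with a region at an end (5) were 5 without any 1 library, 3 with −log10 q of at least 5 (38.1% of all genes), 2 with the 10000 strongest peaks (20.6%), 3 within 250 bp, 8 within 3 kb and, a choice made after seeing the data, 3 of 7 by the promoter windows. The share of the genes' peaks in reproducible regions (63.5%) was 50% with 50% reciprocal overlap, 71.7% with −log10 q of at least 5 and 63.5% to 79.0% without 1 library. Region counts and this share were not recomputed over the whole genome under these alternatives, so whether the receptor genes moved apart from it was not tested. The other 21 recomputed values of these summaries stayed within 1.5 times the count or 1 SD. By gene, 22 of 90 recomputed counts moved by over 1.5 times. The strongest region of each of the 7 genes was the same with pileup over background as the measure, but that of Csf2rb became the one 4.88 kb below its end without library 2 (5.34) or library 3 (5.49). No paired analysis was possible because the series holds a single group, so that replicate numbers link no samples across groups. Regions with pileups near 10 fragments in some library, such as those of Kit 17.5 kb inside the gene (14, 9 and 14) and of Lifr over its start (12, 11 and 20), rest on the fewest fragments.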

Other observations

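High fold enrichments were also found near receptor genes outside the members, with protein-coding genes alone taking regions. No filter for artefact-prone regions was applied, and whether such signal accounts for these values was not tested. The highest mean fold enrichment of any region given to Flt1, a VEGF receptor gene on the chromosome of Flt3, was 44.7. Crlf2, for the TSLP receptor, reached 26.8 and Ror2 reached 25.1, beside 24.7 for Csf2ra. Across all reproducible regions the highest was 46.3.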
